A study of Mus musculus with 16 samples.

Results

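The 10 genes described here encode neuronal cell surface proteins that carry leucine-rich repeats, together with the receptors that some of them bind: Flrt1, Flrt2, Flrt3, Adgrl1, Adgrl2, Adgrl3, Islr2, Lrrn1, Lrrtm1 and Lingo1. They were matched by symbol to the 48795 genes of the deposited count table, and all 10 were found. The set was selected on the injured and naive levels of 2 of its genes, Flrt3 (higher after nerve injury) and Islr2 (lower), so the injured and naive values of Flrt3 and Islr2 are given as a description without a test. The other 8 genes were tested with the whole table. All 10 passed the filter on low counts that left 19151 genes.

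RNA was sequenced from dorsal root ganglia of mice, taken at lumbar levels L4 to L6 and dissociated, with a Percoll density step named in the sample descriptions. These ganglia hold the cell bodies of sensory neurons, and a crush of the sciatic nerve severs the axons of many of them. The 4 groups of 4 libraries were injured ganglia 24 h after the crush, naive ganglia at 24 h, injured ganglia at 72 h and naive ganglia at 72 h. Per the series text, 4 mice were used at each time, the crush was made on 1 side, and naive ganglia came from the same mice, so the naive groups are ganglia of operated animals. Strain, age and sex are not given in the labels used here. The labels do not tie a library to a mouse, so the groups were compared without pairing.

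FLRT proteins are membrane proteins with leucine-rich repeats and fibronectin domains, and they act as ligands for latrophilins, the adhesion G protein-coupled receptors encoded by Adgrl1 to Adgrl3. They also bind the netrin receptors of the Unc5 family in axon repulsion and cell migration, and together with latrophilins and teneurins they organise synapses. Islr2, also called Linx, is a leucine-rich repeat and immunoglobulin protein needed for axon extension and guidance, and it binds receptors of the GDNF family. Lingo1 is a subunit of the Nogo receptor complex, which restrains axon growth in response to myelin.

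Total gene counts ran from 32758978 to 43229939 in injured ganglia, against 41241516 to 56484541 in naive ganglia at 24 h, and from 38530738 to 49717456 in injured ganglia, against 38358039 to 54980782 in naive ganglia at 72 h. Levels are given as CPM, the count of a gene per 1000000 counts of the library after TMM scaling. The summed CPM of 10 neuron markers, among them Tubb3 and Rbfox3, ran from 14700 to 17100 in injured ganglia, against 15100 to 17500 in naive ganglia at 24 h (exact 2-sided permutation test, p = 1 at n = 4 each). At 72 h that sum ran from 15200 to 16300 in injured ganglia, against 14200 to 15500 in naive ganglia (exact permutation p = 0.114, n = 4 each). By edgeR, 2 of the 10 neuron markers were higher and 5 lower at 72 h, against 14.4% and 13.5% of all genes tested. None of the markers of neurons or of other cell types was at 0 in all libraries. In bulk RNA, fewer cells of a type and less RNA per cell cannot be told apart.

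Flrt3 (ENSMUSG00000051379) lies on chromosome 2, from 140650914 to 140671469 on the minus strand of GRCm38, in an intron of Macrod2 on the opposite strand and with no exon base in common with it. Islr2 (ENSMUSG00000051243) lies on chromosome 9, from 58196297 to 58204319 on the minus strand, and shares 181 exon bases with its neighbour Islr on the same strand and 55 with 1600029O15Rik, so that part of its count is uncertain. Their promoters are shown because these genes had the largest log2 changes in size among the members at 24 h and in opposite directions. Each sequence runs from 250 bases before to 30 bases after a RefSeq transcription start in GRCm38.p6, 5′ to 3′ on the minus strand, and for Islr2 the start farthest upstream of 3 listed is shown. Capitals mark a match to an AP-1-like pattern whose central base may be any base.
Flrt3, chr2:140671447-140671726: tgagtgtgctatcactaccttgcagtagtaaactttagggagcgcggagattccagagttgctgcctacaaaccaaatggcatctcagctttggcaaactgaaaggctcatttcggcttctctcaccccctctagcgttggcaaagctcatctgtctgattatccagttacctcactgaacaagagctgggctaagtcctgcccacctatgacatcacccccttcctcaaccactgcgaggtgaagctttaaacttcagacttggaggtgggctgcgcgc
Islr2, chr9:58204290-58204569: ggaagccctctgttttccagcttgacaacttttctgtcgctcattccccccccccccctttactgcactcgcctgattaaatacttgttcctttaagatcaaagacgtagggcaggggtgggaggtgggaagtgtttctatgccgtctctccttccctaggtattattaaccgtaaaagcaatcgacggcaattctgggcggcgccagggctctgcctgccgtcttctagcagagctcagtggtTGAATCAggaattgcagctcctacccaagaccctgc
The motifs searched on both strands of the 300 bases around each start were an AP-1-like pattern (TGANTCA, where N is any base) and the cyclic AMP response element (TGACGTCA). They do not overlap in these sequences. Of 32851 RefSeq promoters of this length, 7.81% held the AP-1-like letters and 1.79% the other motif. The Islr2 promoter printed above held 1 AP-1-like match, TGAATCA, whose first base lies 6 bases before the start. Whether Jun and Fos family factors, which form AP-1, bind a site with A at the centre was not tested. The 9 members found among these promoters had 14 entries. No other entry held a match to either motif, the Flrt3 promoter and the other Islr2 starts included.

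Flrt3, the ligand of the set with the largest change, had 281.1, 398.5, 384.2 and 435.2 CPM in the injured libraries at 24 h, against 45.6, 41.5, 38.8 and 30.5 CPM in the naive libraries. At 72 h it had 356.3, 452.3, 390.9 and 423.9 CPM in injured libraries, against 42.3, 44.1, 42.0 and 42.7 CPM in naive libraries. Every injured library was far above every naive one at both times, and the injured groups of the 2 times overlapped. The raw counts behind these levels ran from 9969 to 22056 in injured and from 1291 to 2398 in naive libraries. The fitted log2 fold change was 3.26 (SE 0.12), or 9.58-fold, at 24 h and 3.25 (SE 0.12), or 9.49-fold, at 72 h. The response at 72 h minus that at 24 h was -0.01 on the log2 scale (SE 0.15). Macrod2, the gene around Flrt3, did not pass the test at 24 h (-0.01 on the log2 scale, SE 0.06, adjusted p = 0.964) and fell by 0.33 at 72 h (SE 0.06, adjusted p = 8.08e-05).

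Flrt1 (ENSMUSG00000047787, chromosome 19, 7092001 to 7105729, minus strand) changed in the other direction from Flrt3. It had 10.8, 8.15, 8.72 and 5.99 CPM in injured libraries and 10.02, 12.0, 10.9 and 12.7 CPM in naive libraries at 24 h, where the groups overlapped through injured replicate 1. The log2 fold change at 24 h was -0.44 (SE 0.15, adjusted p = 0.037). That call at 24 h did not hold in a fit of the 2 groups alone (adjusted p = 0.070) or without injured replicate 2, 3 or 4 or naive replicate 2, 3 or 4, where the adjusted p lay between 0.0538 and 0.146. At 72 h Flrt1 had 7.63, 7.73, 7.22 and 8.02 CPM in injured libraries and 14.7, 16.9, 11.95 and 11.9 CPM in naive libraries, and the groups did not overlap. It fell by 0.86 on the log2 scale at 72 h (SE 0.15, adjusted p = 7.93e-05). The difference of its responses, 72 h minus 24 h, was -0.42 (SE 0.21, adjusted p = 0.294). Macrod1, on the opposite strand around Flrt1, was looked up after the annotation was read and did not pass the test at either time (log2 fold changes 0.00 and -0.08, adjusted p = 0.996 and 0.72).

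Flrt2 (ENSMUSG00000047414, chromosome 12, 95692226 to 95785215, plus strand) rose at 72 h. It had 28.4, 34.1, 32.4 and 34.8 CPM in injured libraries at 72 h, against 20.2, 20.1, 19.4 and 18.0 CPM in naive libraries, with no overlap. The log2 fold change at 72 h was 0.74 (SE 0.09, 1.67-fold, adjusted p = 1.53e-06). At 24 h it had 20.95, 20.1, 16.8 and 15.6 CPM in injured libraries, against 17.4, 17.3, 16.1 and 15.8 CPM in naive libraries, and the groups overlapped (log2 fold change 0.14, SE 0.10, adjusted p = 0.354). The difference of the responses was itself past the threshold, at 0.60 on the log2 scale (SE 0.13, edgeR adjusted p = 0.00702). A second deposited table counts reads in short genomic windows, and 3 of its windows with a mean of 10 counts or more lie in Flrt2, in what the file annotates as its 3' UTR, at chr12:95781076-95781099, chr12:95782138-95782161 and chr12:95783565-95783588. Their reads come from the same libraries and are no independent support. In these 3 windows the ratio of injured to naive mean CPM was 2.9, 1.5 and 1.82 at 72 h with no overlap, and the groups overlapped in all 3 at 24 h. Of 83 windows inside the members, 13 reached that mean, and none of these lay in Flrt3 or Islr2. Those outside Flrt2 lay in Adgrl1, Adgrl3, Lrrn1 and Lrrtm1, and in each of them the groups overlapped at both times.

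Markers of other cells moved at 72 h as well. Of all genes tested, edgeR called 10.7% higher and 8.31% lower at 24 h, and 14.4% and 13.5% at 72 h. The summed CPM of 7 macrophage markers ran from 44.9 to 56.7 in injured ganglia, against 12.4 to 22.9 in naive ganglia at 72 h (exact permutation p = 0.0286, the smallest that 4 against 4 libraries can give), and 5 of the 7 were higher by edgeR. At 24 h that sum ran from 13.8 to 21.5 in injured ganglia, against 12.7 to 20.4 in naive ganglia. The sum of 6 satellite glia markers ran from 1310 to 1460 in injured ganglia, against 818 to 1030 in naive ganglia at 72 h, and from 1110 to 1220 in injured ganglia, against 873 to 1000 in naive ganglia at 24 h (exact permutation p = 0.0286 at each time, n = 4 each). Of these 6 markers, 1 was higher by edgeR at each time, and the mean log2 level of the list did not pass the exact permutation test (p = 0.343 at 72 h and 0.2 at 24 h, n = 4 each). The sum of 5 mural cell markers ran from 223 to 253 in injured ganglia, against 264 to 297 in naive ganglia at 72 h (exact permutation p = 0.0286, n = 4 each), with 2 of the 5 lower. All 5 neutrophil markers were lower at 72 h, with sums of 37.4 to 142 in injured ganglia, against 101 to 394 in naive ganglia that overlapped. For mural cells and neutrophils the naive 72 h group had the highest mean sum of the 4 groups, at 281 and 219 CPM. The mean sums were 237 and 87.5 in injured 72 h, 218 and 87.7 in naive 24 h, and 223 and 71.2 in injured 24 h ganglia. Fibroblast markers, 6 in number, summed to 209 to 351 in injured ganglia, against 173 to 332 in naive ganglia at 72 h (exact permutation p = 0.571, n = 4 each). The part of these cells in the change of Flrt2 or of any other member was not tested.

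**Figure D1:**
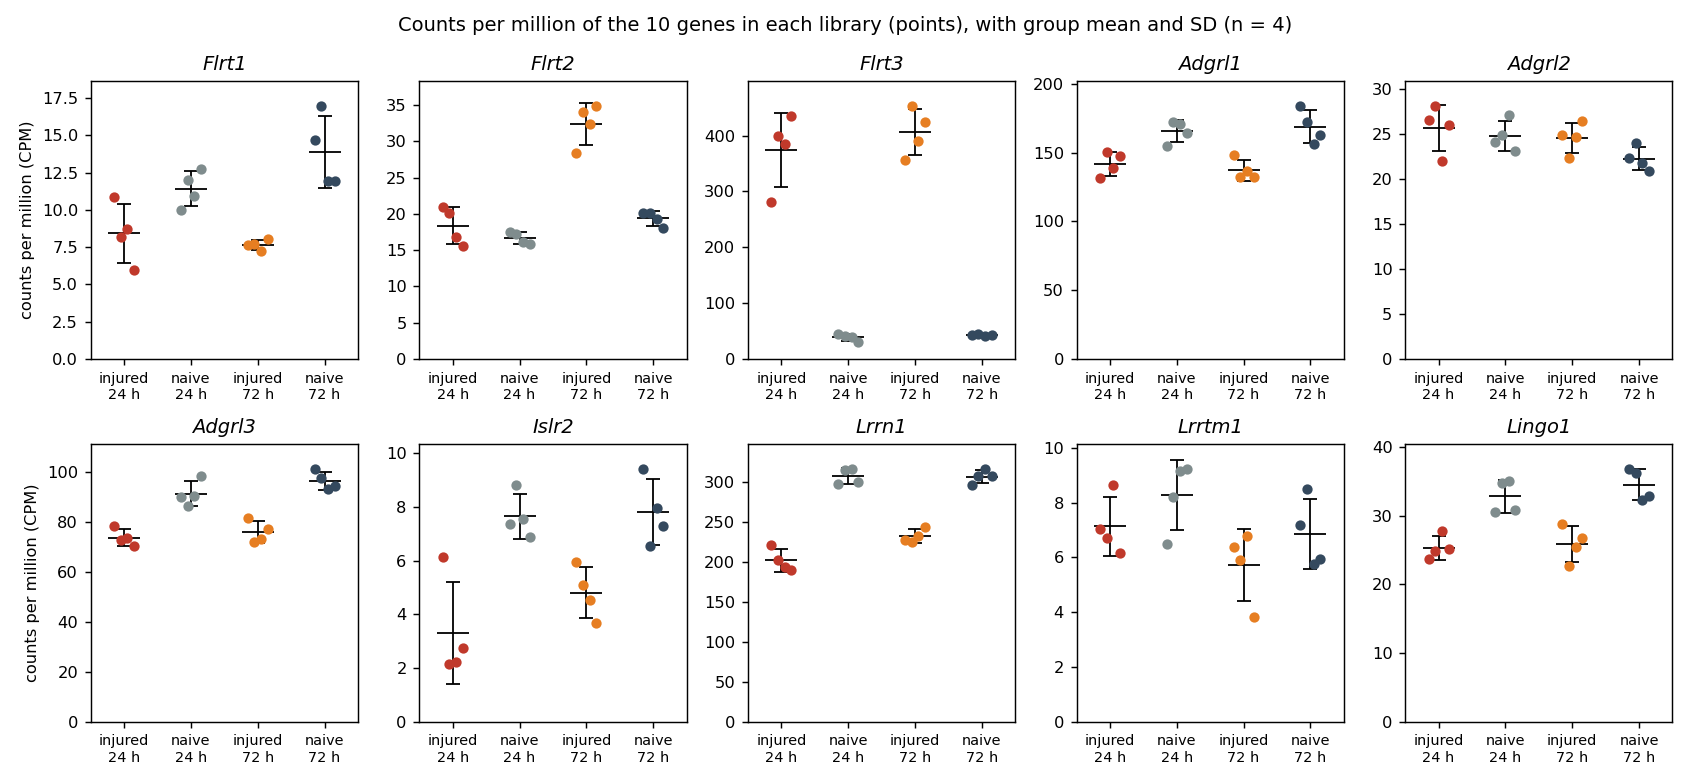
CPM (y axis, starting at 0, with its own scale in each panel) of the 10 genes in the injured and naive groups at 24 h and 72 h; points are libraries, bars the mean and SD of 4. Flrt3 lies between 281.1 and 452.3 CPM in the 8 injured libraries and between 30.5 and 45.6 CPM in the 8 naive ones, and Flrt2 stands apart from naive at 72 h.

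The 3 FLRT genes were next set side by side per length, as CPM per kilobase of the union of annotated exons. By this measure Flrt3 made up 95.1% ± 1.70 of the FLRT sum in injured and 65.9% ± 4.41 in naive libraries at 24 h (SD, n = 4 each). At 72 h it made up 93.8% ± 0.264 in injured and 64.4% ± 2.13 in naive libraries. Since Flrt3 was chosen for its rise, these shares are a description. The share of Flrt2 was 3.05% ± 0.933 in injured and 17.9% ± 1.17 in naive libraries at 24 h, although its own level did not pass the test then. Among the 3 latrophilins, Adgrl1 held 73.5% ± 1.78 in injured and 73.7% ± 1.21 in naive libraries at 24 h, and 72.7% ± 0.943 in injured and 73.7% ± 0.712 in naive libraries at 72 h. The share of Adgrl2, the smallest, was 8.03% ± 0.672 in injured and 6.68% ± 0.386 in naive libraries at 24 h, and 7.89% ± 0.559 in injured and 5.90% ± 0.338 in naive libraries at 72 h, without overlap at either time. The latrophilin shares depend strongly on the length used. Per kilobase of exon union, Adgrl1, Adgrl2 and Adgrl3 averaged 19.3, 1.75 and 5.13 CPM in naive 24 h libraries. Per kilobase of the longest transcript they averaged 20.2, 4.10 and 13.4 CPM, so the share of Adgrl1 would be smaller.

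**Figure D2:**
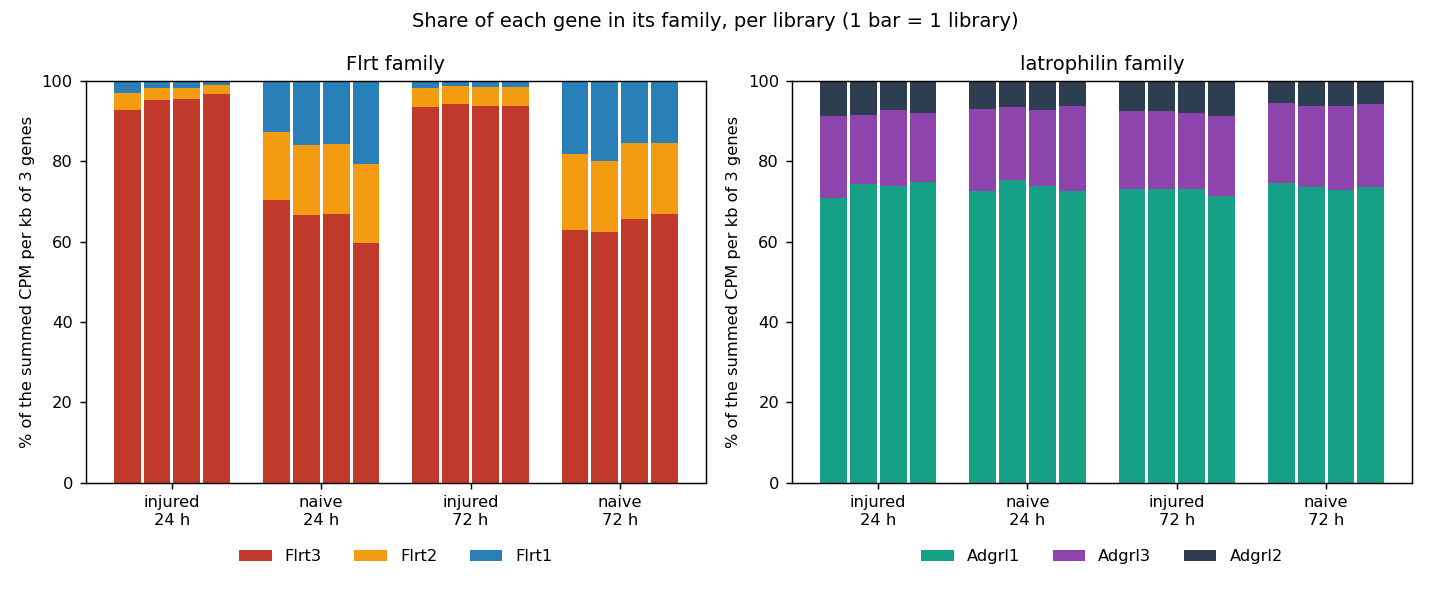
Percent of the summed CPM per kilobase of exon that each gene holds in the FLRT family (left) and the latrophilin family (right), 1 bar per library, 4 libraries per group. Flrt3 holds 92.7% to 96.7% in injured ganglia, against 59.8% to 70.3% in naive ganglia, at 24 h. In the latrophilin family Adgrl2, on top, holds 7.12% to 8.67% in injured ganglia, against 6.20% to 7.11% in naive ganglia, at 24 h. Length is the union of annotated exons, and the latrophilin shares depend strongly on that choice.

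The latrophilins are the receptors of FLRT and teneurin proteins, and Adgrl1 and Adgrl3 were lower after injury at both times. Adgrl1 (ENSMUSG00000013033, chromosome 8) had 131.5, 150.5, 138.5 and 147.7 CPM in injured libraries and 154.8, 172.6, 170.5 and 164.0 CPM in naive libraries at 24 h. It fell by 0.22 on the log2 scale at 24 h (SE 0.06, adjusted p = 0.00968) and by 0.30 at 72 h (SE 0.06, adjusted p = 0.00036), when it averaged 137.2 ± 7.77 CPM in injured and 168.9 ± 11.9 CPM in naive libraries (SD, n = 4 each). The groups did not overlap at either time. Adgrl3 (ENSMUSG00000037605, chromosome 5) had 78.3, 72.5, 73.3 and 70.1 CPM in injured libraries and 89.8, 86.1, 90.4 and 98.2 CPM in naive libraries at 24 h. At 72 h it had 81.3, 71.8, 73.2 and 77.1 CPM in injured libraries and 101.0, 97.4, 92.8 and 94.0 CPM in naive libraries, again without overlap. Adgrl3 fell by 0.31 at 24 h (SE 0.06, adjusted p = 0.000365) and by 0.34 at 72 h (SE 0.06, adjusted p = 5.62e-05).

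Adgrl2 (ENSMUSG00000028184, chromosome 3), the remaining latrophilin, averaged 25.7 CPM in injured and 24.8 CPM in naive libraries at 24 h, and 24.6 CPM in injured and 22.3 CPM in naive libraries at 72 h. Its log2 fold changes were 0.05 at 24 h (SE 0.09, adjusted p = 0.756) and 0.14 at 72 h (SE 0.09, adjusted p = 0.247), and the groups overlapped at both times. Adgrl1 shares 1107 exon bases with Gm10644, Adgrl3 shares 1582 with Gm16054 on the opposite strand and Adgrl2 shares 202 with Gm43573. The strand setting of the counting is not given in the sources used here, so reads from these overlaps cannot be assigned.

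Islr2, the gene chosen for its fall, had 6.15, 2.16, 2.22 and 2.74 CPM in injured libraries at 24 h, against 7.36, 8.81, 7.56 and 6.87 CPM in naive libraries. At 72 h it had 5.94, 5.11, 4.54 and 3.66 CPM in injured libraries, against 9.41, 6.53, 7.96 and 7.28 CPM in naive libraries. No injured library reached the lowest naive one at either time, but injured replicate 1 at 24 h lay far above the other injured libraries at that time. Raw counts ran from 72 to 249 in injured and from 291 to 499 in naive libraries. The log2 fold change was -1.21 (SE 0.24, 0.432-fold) at 24 h and -0.70 (SE 0.24, 0.617-fold) at 72 h. The response at 72 h minus that at 24 h was 0.51 on the log2 scale (SE 0.34). Without injured replicate 1 at 24 h, the 24 h value was -1.69 and the difference of the responses was 0.99.

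Lrrn1 (ENSMUSG00000034648, chromosome 6), a neuronal leucine-rich repeat membrane protein, had the smallest adjusted p of the 8 tested members at 24 h. It had 221.6, 203.1, 194.3 and 189.5 CPM in injured libraries and 297.7, 315.7, 316.2 and 300.4 CPM in naive libraries at 24 h. At 72 h it had 227.6, 225.0, 232.5 and 244.3 CPM in injured libraries and 296.0, 307.6, 316.4 and 307.2 CPM in naive libraries. Its groups were well separated at both times. Lrrn1 fell by 0.61 on the log2 scale at 24 h (SE 0.05, adjusted p = 5.3e-09) and by 0.40 at 72 h (SE 0.05, adjusted p = 1.38e-06). The difference of its responses, 0.20 (SE 0.07), did not pass the test with all libraries (adjusted p = 0.101), and it passed without injured replicate 1 at 24 h (0.25, adjusted p = 0.0188).

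Lingo1 (ENSMUSG00000049556, chromosome 9), the Nogo receptor subunit, had 23.6, 24.9, 27.8 and 25.1 CPM in injured libraries and 30.6, 34.8, 35.0 and 30.8 CPM in naive libraries at 24 h. At 72 h it had 28.8, 22.6, 25.4 and 26.8 CPM in injured libraries and 36.8, 36.2, 32.3 and 32.9 CPM in naive libraries, and the groups did not overlap at either time. It fell by 0.37 at 24 h (SE 0.08, adjusted p = 0.00264) and by 0.42 at 72 h (SE 0.08, adjusted p = 0.000529). Lrrtm1 (ENSMUSG00000060780, chromosome 6), a postsynaptic organiser that binds neurexins, ranged from 6.16 to 8.66 CPM in injured ganglia, against 6.49 to 9.23 CPM in naive ganglia at 24 h, and from 3.83 to 6.78 CPM in injured ganglia, against 5.75 to 8.51 CPM in naive ganglia at 72 h. It did not pass the test (log2 fold changes -0.21 and -0.26, SE 0.17 and 0.18, adjusted p = 0.451 and 0.308), and the groups overlapped. Ctnna2, whose intron holds Lrrtm1 on the opposite strand, did not pass it either (adjusted p = 0.879 at 24 h and 0.881 at 72 h).

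Over the 8 members not chosen for their own change, 0 were higher and 5 lower at 24 h: Flrt1, Adgrl1, Adgrl3, Lrrn1 and Lingo1. Over all genes tested, 10.7% were called higher and 8.31% lower at 24 h. DESeq2 also called 0 of the 8 higher at 24 h, and 0 were higher at an unadjusted p below 0.05. At 72 h, 1 of the 8 was higher, Flrt2, and the same 5 were lower, against 14.4% higher and 13.5% lower over all genes tested. The median log2 fold change of the 8 was -0.27 at 24 h and -0.32 at 72 h, against -0.01 at both times over all genes tested. Groups did not overlap for 4 of the 8 at 24 h, against 18.5% of all genes tested, and for 6 of the 8 at 72 h, against 31.3%. The 2 comparisons use different libraries, though the libraries of each injured and naive pair of groups come from the same 4 mice. The set was put together with earlier results of these data known, so these counts and shares are a description of it.

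**Figure D3:**
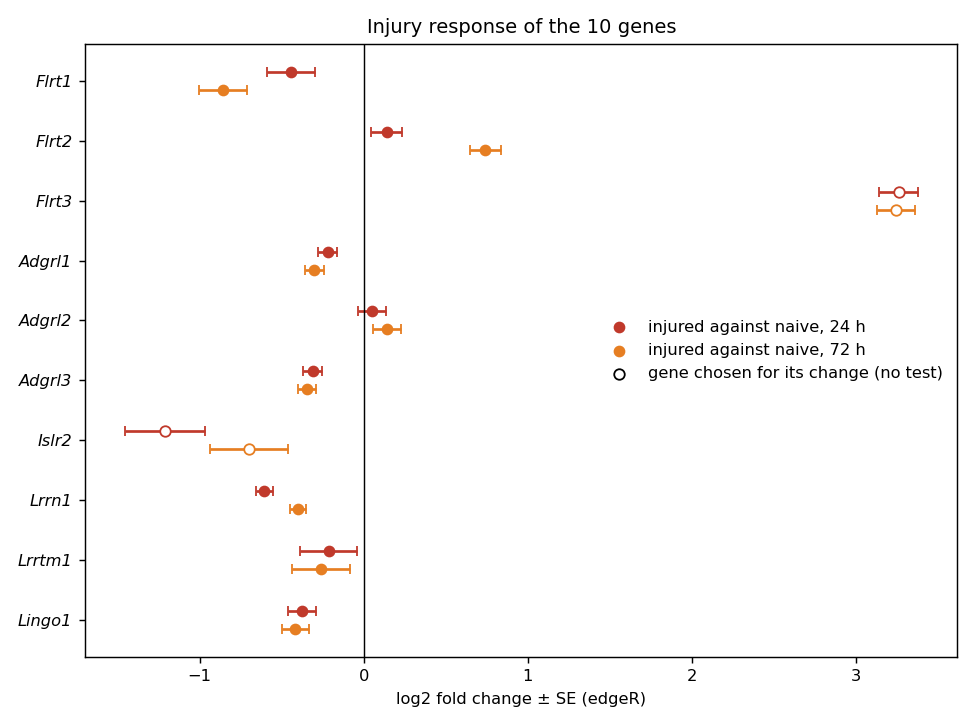
Fitted log2 fold change (x axis, with SE) of injured against naive ganglia at 24 h and 72 h for each of the 10 genes. Filled points are tested genes and open points are Flrt3 and Islr2, chosen for their change; Flrt3 lies at 3.26 and 3.25, and of the tested genes only Flrt2 at 72 h was called to the right of 0.

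The difference of the responses, 72 h minus 24 h, passed the test for 1 of the 8 members upward, Flrt2, and for 0 downward, against 2.86% upward and 3.44% downward over all genes tested. For the downward direction DESeq2 also called 0, and 0 had an unadjusted p below 0.05. The upward count was 2 without injured replicate 1 at 24 h, where Lrrn1 joined Flrt2.

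Naive ganglia of the 2 times were compared as a check that uses no injured library. Of the 10 members, 0 were higher and 0 lower in naive 72 h against naive 24 h by edgeR, against 1.61% higher and 0.731% lower over all genes tested. DESeq2 likewise called 0 in either direction, and 1, Flrt2, was higher at an unadjusted p below 0.05. Flrt3 averaged 42.8 ± 0.934 CPM in naive 72 h and 39.1 ± 6.40 CPM in naive 24 h libraries (SD, n = 4 each; log2 fold change 0.13, SE 0.11, adjusted p = 0.621). Islr2 averaged 7.80 ± 1.23 CPM in naive 72 h and 7.65 ± 0.83 CPM in naive 24 h libraries (log2 fold change 0.03, SE 0.23, adjusted p = 0.977). The naive groups did not overlap for 1 of the 10, Flrt2 (log2 fold change 0.22, SE 0.09, adjusted p = 0.238), against 10.5% of all genes tested.

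Ordered by level per kilobase of exon, Flrt3 was first of the 10 in injured ganglia, at 77.0 ± 13.6 CPM per kilobase at 24 h and 83.4 ± 8.53 at 72 h (SD, n = 4). Lrrn1 came second in injured ganglia, at 54.6 ± 3.82 at 24 h, where its libraries overlapped those of Flrt3, and at 62.8 ± 2.31 at 72 h, where they did not. In naive ganglia Lrrn1 was first, at 82.9 ± 2.26 CPM per kilobase at 72 h and 83.1 ± 2.66 at 24 h, Adgrl1 was second, at 19.7 ± 1.38 at 72 h and 19.3 ± 0.936 at 24 h, and Flrt3 came next, at 8.79 ± 0.192 at 72 h and 8.04 ± 1.32 at 24 h. The naive 24 h libraries of Flrt3 overlapped those of Lingo1, the next in order. Islr2 was last in all 4 groups, at 0.560 ± 0.322 in injured and 1.29 ± 0.140 CPM per kilobase in naive libraries at 24 h. In injured ganglia at 72 h the order after Lrrn1 was Adgrl1, Lingo1, Adgrl3, Flrt2, Lrrtm1, Adgrl2, Flrt1 and Islr2, and neighbours from Adgrl3 to Flrt2 and from Lrrtm1 to Adgrl2 overlapped. Dividing by the longest transcript in place of the exon union put Adgrl3 ahead of Flrt3 in naive ganglia. For Adgrl2, Adgrl3 and others with many transcripts, the level per length depends on which length is used.

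By the smallest root-mean-square difference of centred log2 CPM over the 16 libraries, among 11999 genes, the nearest to Flrt3 were Gadd45a (0.189), Sema6a (0.201), Sox11 (0.275), Smim3 (0.299) and Mchr1 (0.410). Gadd45a encodes a growth arrest and DNA damage protein, Sema6a a membrane-bound semaphorin, Sox11 a transcription factor and Mchr1 a receptor for melanin-concentrating hormone. Gadd45a averaged 202.6 ± 27.1 CPM in injured and 20.9 ± 3.53 CPM in naive libraries at 24 h, and Sox11 averaged 209.6 ± 23.3 CPM in injured and 24.0 ± 1.19 CPM in naive libraries at 72 h. With group means in place of libraries, 4 of the 5 were again among the nearest. Those nearest to Islr2 were Trpc4 (0.356), Ttc38 (0.368), C1qtnf12 (0.369), Dapk2 (0.372) and Bmp15 (0.376), at a distance larger than that of the first 4 genes near Flrt3, and 1 of the 5 was again among the nearest with group means.

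**Figure D4:**
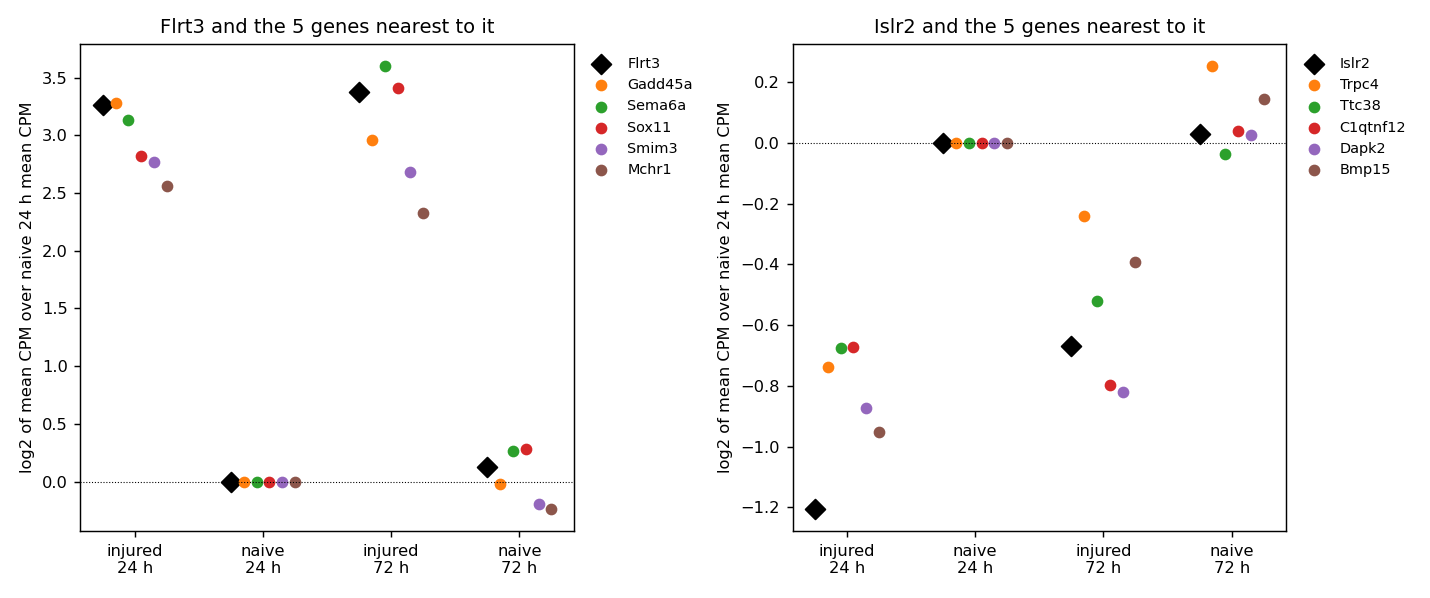
Log2 of the mean CPM of each group over the mean of naive 24 h (y axis) for Flrt3 (left, black diamonds) and Islr2 (right, black diamonds) with the 5 genes nearest to each over the 16 libraries. The genes near Flrt3 were picked for likeness, so their closeness in the injured groups is a description; the y axes of the panels differ.

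Among 15 partners of FLRT and latrophilin proteins (Unc5 netrin receptors, teneurins, neurexins, FGF receptors and Robo1), all tested, 1 was higher and 3 lower at 24 h, and 2 were higher and 8 lower at 72 h. For comparison, 10.7% of all genes tested were higher and 8.31% lower at 24 h, and 14.4% were higher and 13.5% lower at 72 h. The median log2 fold change of this list was -0.10 at 24 h and -0.30 at 72 h. The count of 3 lower at 24 h was 1 without injured replicate 4 or naive replicate 2. Unc5b, a netrin receptor that FLRT proteins bind, averaged 7.65 ± 1.18 CPM in injured and 14.7 ± 1.11 CPM in naive libraries at 24 h (SD, n = 4 each), and it fell by 0.94 at 24 h (SE 0.13, adjusted p = 9.09e-06) and by 1.14 at 72 h (SE 0.13, adjusted p = 2.98e-07). Among teneurins, the other latrophilin ligands, Tenm4 rose by 0.57 at 24 h and 0.51 at 72 h on the log2 scale (SE 0.10 at both times, adjusted p = 0.000152 and 0.000237). Tenm3 fell by 0.25 at 24 h and 0.35 at 72 h (adjusted p = 0.0184 and 0.000683). Tenm1 had -0.13 at 24 h (adjusted p = 0.393) and fell by 0.76 at 72 h (SE 0.10, adjusted p = 1.55e-06). Fgfr1, a fibroblast growth factor receptor to which FLRT proteins bind, had 0.03 at 24 h (adjusted p = 0.83) and fell by 0.57 at 72 h (SE 0.07, adjusted p = 1.2e-06). Unc5c, named after its values were seen, was the second partner called higher at 72 h (0.45, SE 0.10, adjusted p = 0.000933).

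Of 9 genes of the Nogo receptor complex and its ligands, 2 were higher and 2 lower at 24 h, and 2 were higher and 3 lower at 72 h, with list medians of -0.12 and -0.25. That is 22.2% higher and 22.2% lower at 24 h, against 10.7% and 8.31% over all genes tested. At 72 h it is 22.2% and 33.3%, against 14.4% and 13.5%. Rtn4, which encodes the ligand Nogo, averaged 2946 ± 167 CPM in injured and 1703 ± 72.1 CPM in naive libraries at 72 h, and it rose by 0.29 on the log2 scale at 24 h (SE 0.05, adjusted p = 8.74e-05) and by 0.79 at 72 h (SE 0.05, adjusted p = 6.7e-12). Rtn4rl1, a Nogo receptor homologue, fell by 0.65 at 24 h and 0.71 at 72 h (SE 0.09 at both times, adjusted p = 8.49e-06 and 1.43e-06). Omg, a myelin ligand of the same receptor, fell by 0.50 at 24 h and 0.76 at 72 h (SE 0.09 at both times, adjusted p = 0.000183 and 4.2e-07). The other gene called higher was Rhoa, a small GTPase named after its values were seen (0.15 at 24 h and 0.14 at 72 h, adjusted p = 0.0409 and 0.0301). The count of 2 higher was 1 at 24 h without injured replicate 1, 2 or 3 or naive replicate 1 or 2, in a fit of the 2 groups alone, with no filter on low counts and with the replicate number as a block. The 72 h count was 1 with no filter and without injured replicate 1 or 2 or naive replicate 1, 3 or 4.

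Among 37 other leucine-rich repeat adhesion genes, all tested, 2 were higher and 13 lower at 24 h (5.41% and 35.1%), and 3 were higher and 15 lower at 72 h (8.11% and 40.5%). The shares over all genes tested were 10.7% higher and 8.31% lower at 24 h, and 14.4% and 13.5% at 72 h. The list medians were -0.17 at 24 h and -0.26 at 72 h. Amigo3 fell by 0.81 at 24 h and 0.89 at 72 h (SE 0.09 at both times, adjusted p = 2.29e-07 and 3.11e-08). Slitrk3, a synaptic adhesion gene, fell by 0.67 at 24 h and 0.59 at 72 h (SE 0.07 at both times, adjusted p = 2.66e-07 and 9.86e-07). Lrig1, a negative regulator of receptor tyrosine kinases, rose by 1.37 at 24 h and 1.15 at 72 h (SE 0.12 at both times, adjusted p = 1.14e-08 and 8.92e-08). Lrrtm3, a relative of Lrrtm1, averaged 22.3 ± 2.25 CPM in injured and 9.60 ± 0.667 CPM in naive libraries at 72 h (SD, n = 4 each), a log2 difference of 1.22 (SE 0.12, adjusted p = 3.61e-08), against -0.13 at 24 h (SE 0.12, adjusted p = 0.531). Lgi3, a secreted leucine-rich repeat protein, had -0.21 at 24 h (adjusted p = 0.0971) and fell by 0.94 at 72 h (SE 0.09, adjusted p = 1.04e-08).

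Of 26 other adhesion G protein-coupled receptors, 21 were tested, and 2 were higher and 3 lower at 24 h and 3 higher and 7 lower at 72 h, with list medians of 0.14 and -0.19. The shares higher, 9.52% at 24 h and 14.3% at 72 h, lay near those over all genes tested, 10.7% and 14.4%. The shares lower were 14.3% and 33.3%, against 8.31% and 13.5% over all genes tested. The count of 2 higher at 24 h was 1 without injured replicate 2 or 3 or naive replicate 1 or 2. Adgrd1 averaged 38.2 ± 3.58 CPM in injured and 6.22 ± 0.853 CPM in naive libraries at 72 h, and 11.1 ± 1.05 CPM in injured and 5.97 ± 0.472 CPM in naive libraries at 24 h (SD, n = 4 each). It rose by 2.62 on the log2 scale at 72 h (SE 0.11, adjusted p = 2.1e-14) and by 0.90 at 24 h (SE 0.11, adjusted p = 2.2e-06). Adgra1 fell by 0.83 at 24 h (SE 0.14, adjusted p = 8.89e-05) and by 0.68 at 72 h (SE 0.14, adjusted p = 0.000451). Adgra3 fell by 0.33 at 24 h (SE 0.07, adjusted p = 0.00253) and by 0.50 at 72 h (SE 0.08, adjusted p = 1.48e-05). Adgrb3, a receptor for C1q-like proteins, fell by 0.36 at 24 h (SE 0.07, adjusted p = 0.00109) and had -0.05 at 72 h (adjusted p = 0.708). Adgre1, the macrophage gene for F4/80, was named after its values were seen and rose by 1.47 at 72 h (SE 0.35, adjusted p = 0.00208), beside the macrophage markers given above.

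Islr2 binds receptors of the GDNF family, and of 4 such receptor genes 2 were higher and 1 lower at 24 h and 3 higher and 1 lower at 72 h. All genes tested had shares of 10.7% higher and 8.31% lower at 24 h, and 14.4% and 13.5% at 72 h. Gfra1, the GDNF co-receptor, averaged 433.5 ± 59.3 CPM in injured and 159.6 ± 12.0 CPM in naive libraries at 24 h, and 559.1 ± 50.1 CPM in injured and 158.1 ± 9.65 CPM in naive libraries at 72 h (SD, n = 4 each). It rose by 1.44 on the log2 scale at 24 h (SE 0.08, adjusted p = 9.78e-12) and by 1.82 at 72 h (SE 0.08, adjusted p = 7.45e-14). Ret, the signalling receptor of this family, rose by 0.40 at 24 h and 0.41 at 72 h (SE 0.06 at both times, adjusted p = 8.64e-06 and 3.78e-06). Gfra2, the neurturin co-receptor, fell by 0.67 at 24 h and 0.86 at 72 h (SE 0.10 at both times, adjusted p = 2.61e-05 and 4.51e-07). Gfra3, the artemin co-receptor, had 0.03 at 24 h (adjusted p = 0.897) and rose by 0.76 at 72 h (SE 0.10, adjusted p = 1.7e-06). Injury values of Islr2 itself lie beside these as a description only, at -1.21 and -0.70.

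**Figure D5:**
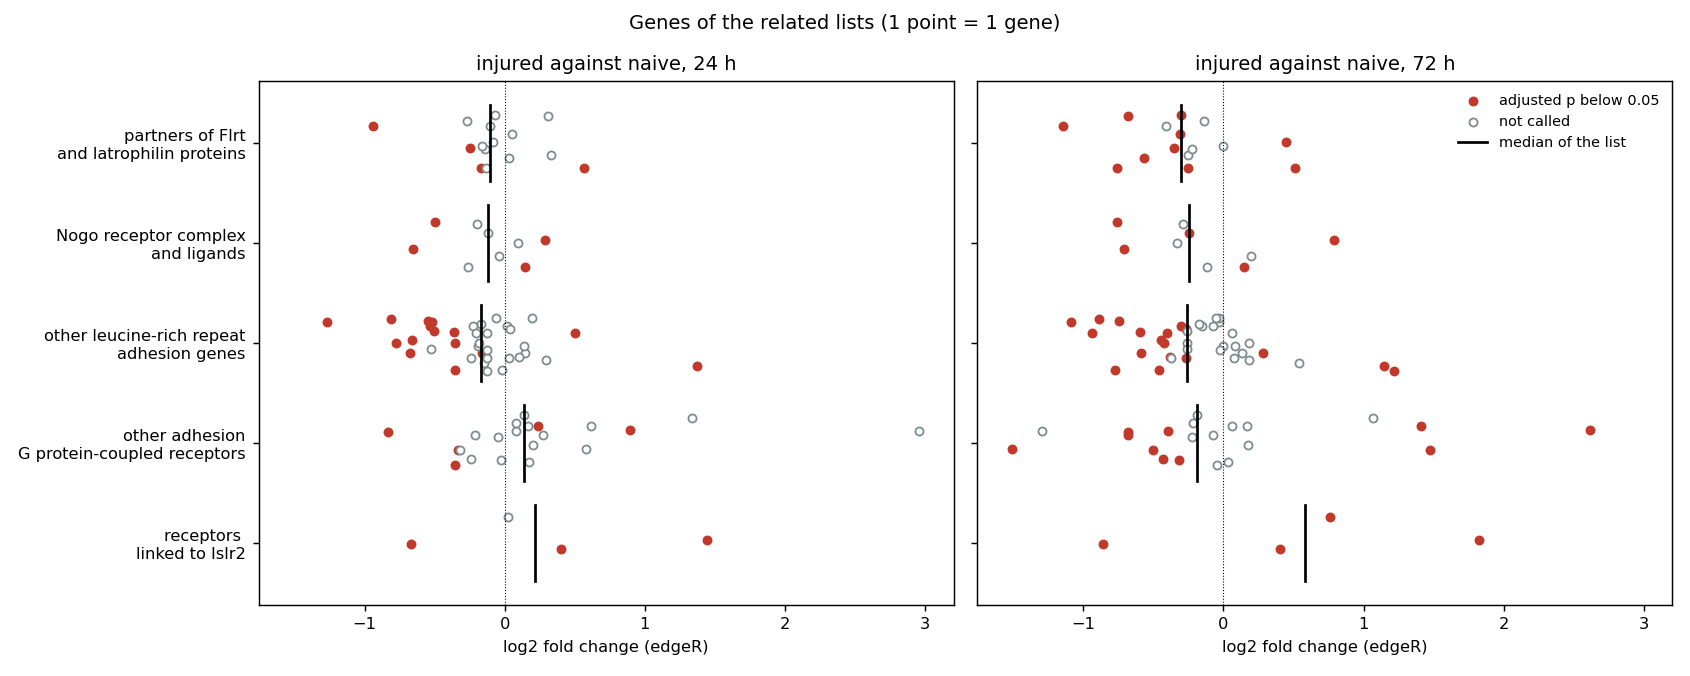
Fitted log2 fold change (x axis) of injured against naive ganglia at 24 h (left) and 72 h (right) for the tested genes of the 5 related lists, 1 point per gene, with height within a list drawn at random; filled points have an adjusted p below 0.05 and black lines are list medians. The median of the other leucine-rich repeat genes lies at -0.17 at 24 h and -0.26 at 72 h, and Adgrd1 is the called point farthest to the right, at 2.62 at 72 h.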

How the data were processed

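Both deposited tables hold counts, whole numbers of reads per gene or per window that the authors did not scale. Per the submitters' processing notes, bcl2fastq 2.17, STAR and HTSeq were used with the builds GRCm38 and mm10, and per the labels' protocols RNA was purified with an RNeasy kit and libraries were made with a TruSeq kit. Strand setting, annotation release and the rule for reads with several matches are not given in the sources used here. No time stands in the names of the 72 h columns, which were taken as 72 h because the other columns name 24 h. The gene test was the quasi-likelihood test of edgeR 4.0.16 (R 4.3.3) after TMM scaling, with all 16 libraries in 1 model of the 4 groups. Genes were kept by filterByExpr with a minimum count of 10 and a minimum total of 15, and p-values were adjusted by Benjamini-Hochberg over the 19151 genes kept, with 0.05 as the threshold. Every adjusted p in the text is from this test unless another is named. Standard errors were obtained from the log2 fold change and the F statistic. Summed marker CPM were compared with exact 2-sided permutation tests. These treat the libraries as unpaired, although injured and naive libraries of a time come from the same 4 mice. DESeq2 1.42.0 and other alternatives are given in the closing section. Exons, lengths and overlaps came from GENCODE M21 (GRCm38).

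Of the gene IDs, 48349 matched a symbol. Libraries of a group differed beyond sampling noise in every pair (chi-square over its degrees of freedom at least 9.79). The labels give no batch, since all descriptions carry the same date. Per the series text the replicates at a time are 4 mice, so p-values measure the spread between mice and their handling. Counting error of reads without molecular identifiers is not that of independent molecules.

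The members, the related lists and the marker lists were chosen with earlier results of these data known. Named genes are the members, the 3 genes of each related list with the smallest p in each injury comparison (all genes of the list linked to Islr2), the genes around members, and the 5 genes nearest to Flrt3 and to Islr2 whose mean log2 CPM was 2 or more. A gene of the list linked to Islr2 is not reported here. The script was tested on simulated data.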

Additional observations from a re-analysis of the deposited data

Results flagged for a closer look

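Islr2 in injured replicate 1 at 24 h, at 6.15 CPM, stood far from the other injured libraries of that time by Dixon's test. This was 1 of 40 groups of 4 libraries examined over the 10 members, and chance flags about 1 in 20.

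For 12 named genes the response at 72 h differed from that at 24 h by edgeR's quasi-likelihood test of the difference itself, adjusted over all genes tested (log2, 72 h minus 24 h). Flrt2, the only member among them, differed by 0.60. Of the FLRT and latrophilin partners, Tenm1 differed by -0.63, Fgfr1 by -0.60 and Unc5c by 0.53. Rtn4 differed by 0.50. Of the leucine-rich repeat relatives, Lrrtm3 differed by 1.34 and Lgi3 by -0.74. Of the adhesion receptors, Adgrd1 differed by 1.72 and Adgre1 by 1.79. Unc5c and Adgre1 were named after their values were seen. Of the receptors linked to Islr2, Gfra1 differed by 0.38 and Gfra3 by 0.73. Macrod2, which surrounds Flrt3, differed by -0.32. Most of these genes were named for a small p in an injury comparison, so their number is no measure of how common such differences are. Over all genes tested, 2.86% differed upward and 3.44% downward. Genes of the related lists that were not named also differed: Lrrn3 by 0.48, Lrfn5 by 0.29, Lgi1 by -0.49 and Nrxn3 by -0.36.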

How the results depend on the processing

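Alternatives were RLE size factors, DESeq2, no filter on low counts, the replicate number as a block, only the groups compared, and each library left out. Of 590 member values under these, 580 stayed the same, 7 lost a call (all Flrt1 at 24 h), 1 gained a call (Lrrn1, difference of the responses) and 2 moved (Islr2 without injured replicate 1 at 24 h). Staying the same means an unchanged call. For the untested responses of Flrt3 and Islr2 it means a shift below the SD of log2 CPM within groups. Uncalled values could change sign, as for Adgrl2 at 24 h without injured replicate 2 (-0.0013, against 0.05 with all libraries). Genes called in naive 72 h against naive 24 h numbered 448, against 948 by DESeq2, 1168 with no filter and 170 to 391 with 1 library left out: 265 and 285 without naive 24 h replicates 3 and 4, and 188, 200 and 170 without naive 72 h replicates 1, 2 and 3. Members called upward in the difference of the responses numbered 1 to 2 with 1 library left out. The replicate block gave each number 1 effect shared by both times, so pairing of libraries within a time was not fitted. With the replicate block the genes called numbered 3626 at 24 h and 5262 at 72 h, against 3641 and 5332 without it. All 40 member values stayed the same by the rule above, and 1 count of the Nogo receptor list changed and is given with it. Correlations of same-numbered libraries lay between 0.047 and 0.101 and 15 of 16 libraries correlated best with their own number, a hint from the data only, so the numbers were not taken as pairs. Few counts limit Islr2, with 72 to 249 in injured libraries.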

Other observations

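Among the 7 members that were chosen or called at 24 h, the injured library closest to the naive mean was replicate 1 for 5: Flrt1, Flrt3, Adgrl3, Islr2 and Lrrn1. Among the 8 chosen or called at 72 h, it was again the library numbered 1 for 6: Flrt2, Flrt3, Adgrl1, Adgrl3, Islr2 and Lingo1. This was looked at after the values were seen, and it was not tested.

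In naive ganglia, 3 of 6 endothelium markers and 3 of 5 mural cell markers were higher at 72 h than at 24 h by edgeR. Of all genes tested, 1.61% were higher. Endothelium sums ran from 205 to 253 CPM in naive 72 h and from 140 to 198 CPM in naive 24 h libraries (exact permutation p = 0.0286, n = 4 each, the smallest possible). The part of these cells in any member's response was not tested. Erythroid markers, 4 in number, summed to 24.7 to 91.9 CPM in injured and 59.7 to 184 CPM in naive libraries at 72 h, which overlapped. Their mean sum was 118 CPM in naive 72 h, against 59.6 in injured 72 h and 65.4 in naive 24 h libraries. Myelinating Schwann cell markers summed to 774 to 879 CPM in injured and 742 to 800 CPM in naive libraries at 72 h (exact permutation p = 0.0857, n = 4 each).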
